A study of Mus musculus with 48 samples.

Results

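The comparison described here set the transcript levels of NIH3T3 cells at hours 62 to 67 against those at hours 38 to 43. Every array was paired with the array taken 24 h earlier, which holds the circadian phase constant if the cycle lasts 24 h. It used 12 of the 48 arrays of a time course, chosen by the hour in the sample title and not by any measured value. NIH3T3 is an established line of mouse embryonic fibroblasts. The cells, obtained from ATCC, were grown to confluence and synchronised with forskolin, a drug that raises cyclic AMP. RNA was collected at hourly steps between hours 20 and 67, and each hour's RNA was hybridized to its own Affymetrix array for the mouse genome. Both windows therefore share the cell line, the forskolin treatment and the confluent state, and differ in the time since the treatment. No untreated culture is part of the design, and the results come from a single cell line. The arrays of a window are consecutive hours of the same time course, not replicate cultures of the same hour, so p-values measure only the spread between these arrays.

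Fibroblasts that fill the dish leave the cell cycle over time. Genes for chromosome segregation and DNA synthesis are then turned down as fewer cells divide. Forskolin, through cyclic AMP and the transcription factor CREB, gives a burst of immediate early genes and sets the circadian clocks of the cells to a common phase. A comparison of arrays 24 h apart leaves out what repeats exactly every 24 h, and leaves what still drifts while the culture ages.

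Levels are given as log2 of the deposited intensity, and a shift is the mean of 6 paired differences in log2, hours 62 to 67 minus hours 38 to 43, with its standard error. A change of 1 on this scale is a 2-fold change. A gene was represented by its brightest probe set, and rose or fell when limma's moderated test, adjusted by the Benjamini-Hochberg method over all 45037 probe sets, gave a p under 0.05. The median over all probe sets was 6.67 and the lowest value 5.12, so values below the median are close to the floor of the array. The cells had the markers of their label, since 15 of 16 fibroblast marker genes lay above the median. None of 9 epithelial and none of 8 endothelial markers did, against 1 of 10 muscle, 2 of 10 neuronal, 3 of 11 macrophage and 2 of 7 adipocyte markers. The β-actin 3′ minus 5′ difference, a measure of RNA length, was 1.28 ± 0.28 (SD, n = 6) at hours 38 to 43 and 1.14 ± 0.15 (SD, n = 6) at hours 62 to 67. It exceeded 1.4 in 3 arrays of the earlier window (hours 38, 40 and 43) and in 1 of the later (hour 67), and its part in the results was not tested beyond the counts given beside them.

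The sequences below are of promoters whose genes carry the main findings, and are shown because cell cycle genes and sterol genes are known to share short promoter elements. The first group, Ccnb2, Cdc20 and Cdk1, are mitosis genes that fell. The second, Mvk, Mvd and Idi1, are genes of cholesterol synthesis that fell here after an earlier rise, though their late calls depended on single pairs. Each line gives the 100 bases before the RefSeq start of the gene (GRCm38.p6), written along the gene's strand. Capitals mark CCAAT, the element bound by NF-Y, and TTTGAA, the core of the cell cycle homology region, each searched on both strands, so that a match on the other strand reads ATTGG or TTCAAA. The regions are chr9:70421555-70421654 (minus strand) for Ccnb2, chr4:118437344-118437443 (minus) for Cdc20, chr10:69352913-69353012 (minus) for Cdk1, chr5:114444169-114444268 (plus) for Mvk, chr8:122443423-122443522 (minus) for Mvd and chr13:8885506-8885605 (plus) for Idi1.
Ccnb2: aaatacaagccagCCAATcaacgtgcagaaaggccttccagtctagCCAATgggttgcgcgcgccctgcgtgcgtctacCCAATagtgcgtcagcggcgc
Cdc20: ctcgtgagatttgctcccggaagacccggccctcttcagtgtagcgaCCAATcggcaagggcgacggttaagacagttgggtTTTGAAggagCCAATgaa
Cdk1: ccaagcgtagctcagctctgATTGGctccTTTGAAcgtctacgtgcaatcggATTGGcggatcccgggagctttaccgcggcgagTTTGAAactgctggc
Mvk: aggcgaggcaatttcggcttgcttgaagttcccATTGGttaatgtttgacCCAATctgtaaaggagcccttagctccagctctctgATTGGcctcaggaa
Mvd: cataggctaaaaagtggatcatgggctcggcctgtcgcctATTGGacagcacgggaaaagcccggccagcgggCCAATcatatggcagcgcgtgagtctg
Idi1: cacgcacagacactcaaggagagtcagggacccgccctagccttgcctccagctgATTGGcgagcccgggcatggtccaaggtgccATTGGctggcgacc

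Over the whole array, 1304 of 45037 probe sets rose (2.9%) and 1463 fell (3.25%) between hours 38 to 43 and hours 62 to 67. At an unadjusted p under 0.05 the count was 11774. The median shift of the called probe sets was 0.38 in size, against 0.15 over all probe sets above the median level. Of the 18193 genes, 684 rose and 874 fell, and the larger changes were mostly falls, since 119 genes fell and 49 rose by at least 1 on the log2 scale. Most expressed genes moved little. Of 10359 genes above the median level, 5251 (50.7%) had a 95% interval of the late shift that lay wholly within 0.3 of zero. The number of calls depended on single pairs: without each pair in turn, 524 to 905 probe sets rose and 695 to 1047 fell, and leaving out any pair except that of hours 40 and 64 lowered both counts by more than 1.5 times.

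Among the 15 largest rises were several secreted and matrix proteins. Mfap4, a microfibril-associated glycoprotein, had a lowest, median and highest level of 9.52, 10.01 and 10.51 at hours 38 to 43, and of 12.79, 13.11 and 13.51 at hours 62 to 67. Its windows did not overlap, and its late shift was 3.12 ± 0.22, an 8.69-fold rise (limma, adjusted p = 0.00284). Srpx2, a secreted sushi-repeat protein, went from 7.56, 8.41 and 8.57 to 10.51, 10.80 and 11.55, a rise of 2.74 ± 0.19. Fmod, or fibromodulin, a small proteoglycan that binds collagen fibrils, had its widest spread in the earlier window, from 8.97 to 11.50, and reached 12.42 to 12.95 in the later. Its shift was 2.24 ± 0.41. Dpt, dermatopontin, a dermal matrix protein that was among the more strongly detected of these genes, rose in all 6 pairs from 14.93, 15.32 and 15.77 to 16.72, 16.86 and 17.27, a 3.04-fold rise (limma, adjusted p = 0.00119). Plxdc1, a membrane protein, rose by 2.55 ± 0.17, and its hour 41 array lay apart at 8.07, below the 8.94 to 9.20 of the other 5.

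A further set of the largest rises were enzymes and signalling molecules. Inmt, a methyltransferase of indolethylamines, had values of 11.13, 12.11 and 12.90 at hours 38 to 43 and of 14.72, 14.84 and 15.20 at hours 62 to 67, a late shift of 2.84 ± 0.19. Ccl8, a chemokine that attracts monocytes, went from 10.76, 11.17 and 11.80 to 13.53, 13.73 and 14.04, a shift of 2.47 ± 0.08. Ccl11, the eosinophil chemokine eotaxin, rose by 1.70 ± 0.22. The windows of these 3 genes did not overlap. Edn1, which encodes the precursor of the vasoconstrictor endothelin, rose 3.13-fold, from 10.37, 10.74 and 11.30 to 12.24, 12.40 and 12.65. Sult1a1, a phenol sulfotransferase, rose by 2.01 ± 0.22, with the hour 67 array apart at 8.66 from the 9.58 to 10.01 of the others.

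The rises of Klra17, a lectin-like receptor, of Cpa4, a carboxypeptidase, and of Ubd, a ubiquitin-like modifier, started from the floor of the array. Klra17 measured 6.04 to 6.42 at hours 38 to 43 and 8.97 to 10.12 at hours 62 to 67, the largest measured value of the 15 rises at 3.20 ± 0.12. Cpa4 went from 5.65 to 5.89 up to 7.96 to 8.62. Ubd did not exceed 5.57 in the earlier window and spread from 6.38 to 9.10 in the later, with a late shift of 2.73 ± 0.38. For these 3 genes no fold is given and the rank among the rises is uncertain, since the earlier window lay below the median of all probe sets. They passed the level filter, a mean over both windows above that median, only through the later window. The calls of Ubd, Fmod and Ccl11 were lost when at least 1 pair was left out, and those of the other 12 largest rises were kept without each pair in turn.

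Among the 15 largest falls were several genes of inflammation. Lcn2, lipocalin, an acute-phase protein that binds bacterial iron carriers, measured 10.13, 10.73 and 11.35 at hours 38 to 43 and 5.59, 6.03 and 6.03 at hours 62 to 67. Its shift of -4.82 ± 0.15 was the largest of the 30 genes, and the later window lay below the median of all probe sets. Il6, the cytokine that drives the acute-phase response, fell from 11.14, 11.65 and 12.29 to 7.46, 8.68 and 9.49, an 8.47-fold fall (limma, adjusted p = 0.00357). Orm1, an acute-phase plasma protein, fell by 2.85 to a later window of 6.02 to 6.45, where only the hour 62 array was above 6.11. Il33, an alarm cytokine of the interleukin-1 family, fell by 2.24 and ended at 5.69 to 5.80, at the floor. Chil1, a chitinase-like secreted protein, fell by 2.25.

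The other large falls were of genes with varied roles. Cdsn, corneodesmosin, an adhesion protein known from skin, went from 11.49, 11.87 and 12.63 to 7.36, 7.99 and 8.59, a 14.7-fold fall. Kcnk10, a potassium channel subunit, went from 9.62, 10.05 and 10.82 to 6.11, 6.46 and 7.08, and Cbr2, a carbonyl reductase, from 11.27, 11.58 and 11.95 to 8.05, 8.76 and 9.25. Neither gene's windows overlapped. Gfra1, a co-receptor for the growth factor GDNF, fell by 2.29, with the hour 38 array apart at 12.63 from the 11.71 to 12.04 of the others. The transcription factor Atoh8 fell by 2.46 and the small GTPase Diras2 by 2.14, the latter ending at 5.46 to 5.89. Lcn2, Orm1, Il33, Kcnk10 and Diras2 had a later mean below the median of all probe sets. They passed the level filter only through the earlier window. Adamtsl4, a secreted protein tied to microfibrils, was the only gene among the 30 whose windows overlapped, as its hour 62 array at 9.002 lay above the lowest earlier value of 8.96. Its shift was -2.44 ± 0.36, and its call, like that of Cdca2, was lost without at least 1 pair. Adamtsl4 measured 10.6 to 11.2 at hours 38, 40 and 43, the arrays of the earlier window with a β-actin difference over 1.4. At hours 39, 41 and 42 it measured 9.0 to 9.7. Atoh8 (11.2 to 11.5 against 10.2 to 10.6), Cdsn (12.1 to 12.6 against 11.5 to 11.7), Cbr2 and Gfra1 were split in the same way. Kcnk10 and Diras2 were not. The part of RNA length in the size of these falls was not tested.

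**Figure D1:**
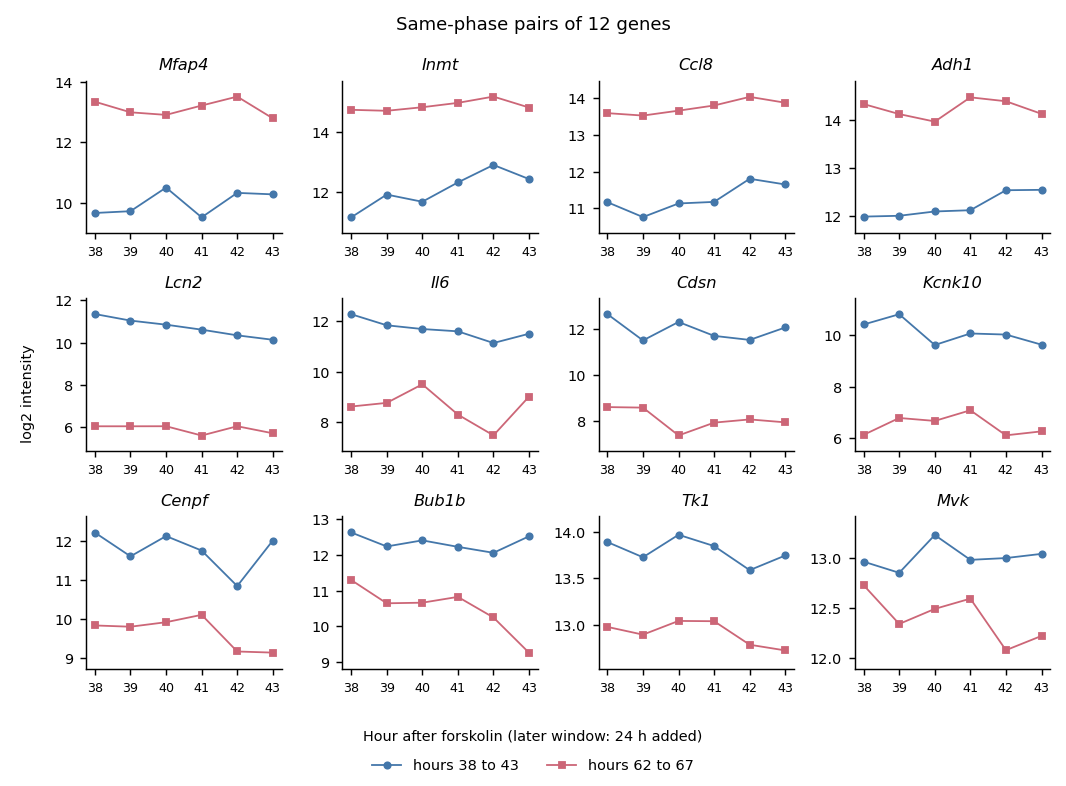
Log2 intensity of 12 named genes, with a line for each window and arrays taken 24 h apart drawn at the same position. The line of hours 62 to 67 lies above that of hours 38 to 43 for Mfap4, Inmt, Ccl8 and Adh1. It lies below for Lcn2, Il6, Cdsn, Kcnk10, Cenpf, Bub1b, Tk1 and Mvk. This holds at all 6 positions, and in none of the 12 do the windows overlap.

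The mitosis genes fell as a whole. All 27 measured members of the list, each of which lay above the median level, fell between hours 38 to 43 and hours 62 to 67, where 4.8% of all genes and 8.33% of genes above the median fell. The median late shift of the list was -0.95, with members from -2.09 to -0.42, against -0.03 over the 10359 genes above the median. The mean level of the list was 13.14, 13.40 and 13.58 (lowest, median and highest array) in the earlier window and 12.05, 12.41 and 12.49 in the later, so that no array of the later window reached the earlier. In such bulk samples, fewer cells of a type and less RNA per cell cannot be told apart. A separate list of 23 growth arrest and quiescence genes, 20 of them above the median level, moved in both directions. Of these 3 rose and 2 fell, and each count ran from 0 to 2 without each pair in turn. The median late shift of that list was 0.006, with 13 members above and 10 below zero. Its late interval lay within 0.3 of zero for 16 members. Exit from the cell cycle itself was not tested.

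By role, the largest falls among the mitosis genes were of kinetochore and checkpoint genes. Cenpf, a kinetochore protein, went from 10.84, 11.88 and 12.21 to 9.14, 9.82 and 10.11, a 4.25-fold fall (limma, adjusted p = 0.00529). Cenpe, a kinetochore motor, fell by 1.72, and Ndc80, which holds the microtubule end, by 1.71. Bub1b, the checkpoint kinase BubR1, went from 12.05, 12.32 and 12.62 to 9.26, 10.65 and 11.30. All 4 had windows that stood apart, and the other probe set above the median fell as well for Cenpf, Bub1b and Cenpe. The falls of Bub1b and Ndc80 did not pass the test when at least 1 pair was left out.

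Genes that drive entry into mitosis and its exit fell too. Ccnb2, a B-type cyclin, went from 9.97, 10.49 and 10.94 to 9.06, 9.50 and 9.64, and its shift was -1.09 ± 0.08. Cdc20, the activator of the anaphase-promoting complex, went from 14.56, 14.89 and 15.05 to 13.45, 13.84 and 14.05, a 2.08-fold fall. Cdk1, the mitotic kinase, fell by 0.42 ± 0.05, and its hour 40 array stood above the rest of its window at 16.24. These 3 genes were chosen after their values were seen, as were all genes named below as such. Cdca2, a chromatin protein of anaphase outside this list, was among the 15 largest falls at -2.20 ± 0.27, with an hour 40 array at 11.45 against 10.55 to 10.67 in the other 5 arrays of the window. A second probe set of Cdca2 above the median was not called.

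The fall of the mitosis genes was measured also with RNA length taken into account. When the β-actin difference entered the fit as a covariate, 23 of 27 members fell. Without the 3 pairs that held an array over 1.4, which leaves 3 pairs, 8 members fell and the median was still -0.95. From 22 to 26 members fell when each pair was left out in turn.

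The same list had fallen at earlier hours too. In the comparison of hours 44 to 49 with hours 20 to 25, made in the same way from 12 other arrays, 4.48% of genes above the median fell and 5.36% rose. That early comparison lies at another phase of the cycle, and its second window comes after the first window of the late comparison, so the 2 intervals overlap in time. The β-actin difference exceeded 1.4 in 3 of its arrays at hours 20 to 25 and in 2 at hours 44 to 49, with a highest value of 2.33. Without these arrays and without the pairing, a setting chosen after seeing the data, all 27 mitosis genes fell early, 15 of 20 cholesterol synthesis genes rose, and 24 of 36 lysosomal genes rose. Of the mitosis genes 23 of 27 fell in it, with a median of -1.03. A test of the difference of the 2 shifts called 3.69% of genes above the median, and among the mitosis genes only Mad2l1, a spindle checkpoint protein chosen after its values were seen. Mad2l1 fell by 0.76 in the early and by 0.51 in the late comparison (limma, adjusted p of the difference = 0.0335). The mean of the list went down from each window of 6 h to the next, from 14.20 at hours 20 to 25 through 13.41 at hours 38 to 43 to 12.32 at hours 62 to 67.

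**Figure D2:**
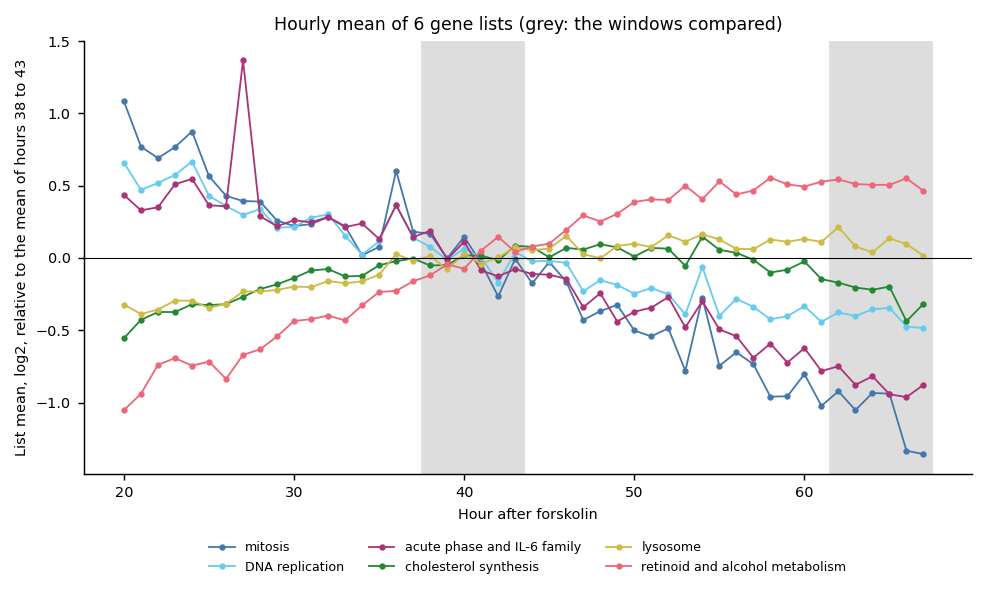
Mean log2 level of the members of 6 gene lists at each hour from 20 to 67, relative to the mean of hours 38 to 43, with the 2 windows of the late comparison shaded. The mitosis list falls through the whole course, the cholesterol list rises and then falls, and the lysosome list has a late median shift of 0.06 after a steep early rise.

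DNA replication genes fell as well, in smaller numbers. Of 29 measured members 13 fell and none rose, where 8.33% of genes above the median fell. The median late shift was -0.32 after a median early shift of -0.57, and 28 of 29 members were below zero. Mcm10, which helps to assemble the replication fork, went from 8.78, 9.18 and 9.44 to 7.70, 7.91 and 8.10, a 2.44-fold fall. Cdc6, which loads the replicative helicase, fell by 0.98, and Mcm5, a subunit of that helicase, by 0.74. Tk1, thymidine kinase, went from 13.59, 13.79 and 13.96 to 12.73, 12.94 and 13.04 (shift -0.88 ± 0.03). These 4 genes had windows without overlap, and they were among the 9 members of the list that still fell by at least 0.3 in both comparisons.

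Other genes of DNA synthesis moved less in the late than in the early comparison. Tyms, thymidylate synthase, had a lowest, median and highest level of 8.85, 8.89 and 8.94 at hours 38 to 43 and of 8.85, 8.89 and 9.08 at hours 62 to 67. Its late shift was 0.05, with a 95% interval from -0.05 to 0.14, after an early shift of -0.50. Rrm2, the small subunit of ribonucleotide reductase, had a late shift of -0.18 (interval -0.27 to -0.08) after an early shift of -0.50, and Prim1, the catalytic subunit of primase, of -0.16 (interval -0.29 to -0.03) after -0.67. In all 3, which were chosen after their values were seen, the late and early shifts differed (limma, adjusted p = 0.00721 for Tyms, 0.0197 for Rrm2 and 0.0382 for Prim1). The late intervals of Rrm2 and Prim1 lay below zero. One of the 2 other probe sets of Rrm2 above the median fell in the late comparison, so its probe sets disagree. Over the list, 4 members had a late shift that differed from the early one, each being higher in the late comparison, and 1 to 3 did without each pair in turn.

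The count for the replication genes depended on the arrays used. From 8 to 10 members fell without each pair in turn, 9 fell with the β-actin covariate, and 1 fell in the 3 pairs whose β-actin difference did not exceed 1.4, where the median was -0.23. The list mean of the hour 42 array, 13.42, lay below the 13.57 to 13.66 of the other arrays of its window.

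Promoters of these lists held the searched elements often. In the RefSeq table of 32851 promoters, each from 250 bases before to 50 after a start, 23 of 27 mitosis genes were found, with 24 promoters. TTTGAA was present in 18 of these 24 (75%), against 17.9% of all promoters, and CCAAT in 19 of 24 (79.2%), against 37.4%. Among 29 promoters of 24 replication genes, TTTCGCGC, an E2F site, was present in 6 (20.7%), against 0.323% of all promoters, and TTTGGCGC in 5 (17.2%), against 0.514%. CCAAT was present in 16 of 19 promoters (84.2%) of 16 cholesterol synthesis genes. Among 24 promoters of the immediate early genes described further on, TGACGTCA, the cyclic AMP response element, was present in 1 (4.17%), against 1.79% of all. A match describes the letters in the window and is neither a bound site nor a cause of these shifts.

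The acute-phase and interleukin-6 family genes fell beyond Lcn2, Il6 and Orm1. Of 19 measured members 12 fell and none rose, with a median of -0.43, where 8.33% of genes above the median fell. Hp, haptoglobin, which binds free haemoglobin, went from 13.28, 13.72 and 13.99 to 11.90, 12.35 and 12.48, a shift of -1.39 ± 0.09. For Hp the late fall was larger than the early fall of 0.57 (limma, adjusted p of the difference = 0.0129). Its hour 66 array lay below the others of its window, at 11.90. In the early comparison 4 members of the list fell and 1 rose. The fall was called for 8 to 10 members without each pair in turn, for 10 with the β-actin covariate and for 5 in the 3 pairs without a high β-actin difference.

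The member of the list that rose early was Saa3, a serum amyloid A protein. It had levels of 13.80, 14.04 and 14.40 at hours 38 to 43 and of 13.45, 13.71 and 14.15 at hours 62 to 67. Its windows overlapped, and it fell by 0.36 ± 0.07 after an early rise of 1.31 (limma, adjusted p of the difference = 0.00342). The late fall of Saa3 did not pass the test without at least 1 pair.

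Chemokine genes moved in both directions. Of 17 measured members 5 rose, led by Ccl8 and Ccl11, and 4 fell, where 3.76% of all genes rose and 4.8% fell. Cxcl1, which attracts neutrophils, went from 12.91, 13.25 and 13.43 to 11.53, 12.02 and 12.29, and both other probe sets of Cxcl1 above the median fell as well. Cx3cl1, a membrane-bound chemokine, fell by 0.86 ± 0.11, although its other probe set was not called. Of 22 interferon response genes 2 rose and 1 fell, where 6.48% of genes above the median rose and 8.33% fell. The largest rise among them was Ifit3, an interferon-induced antiviral protein, at 1.49 ± 0.29, a call that was lost whichever of the 6 pairs was left out.

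Among immediate early genes and CREB targets 8 of 24 measured members fell, none rose and 16 did not pass the test, where 8.33% of genes above the median fell. The list had shifts with a median of -0.25 late and -0.31 early. Nr4a1, an orphan nuclear receptor induced by cyclic AMP, went from 12.29, 12.72 and 13.19 to 10.20, 10.64 and 11.17, a 4.32-fold fall (limma, adjusted p = 0.00181). Its relative Nr4a2 fell by 0.54, with both other probe sets, and the AP-1 subunit Fosl1 by 0.83. The other probe set of Fosl1 above the median was not called. Myc, a growth-promoting transcription factor, fell by 0.73 ± 0.08, from 14.48, 14.71 and 14.94 to 13.68, 13.99 and 14.39. The windows of these genes stood apart.

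In TGF-β and BMP signalling 6 of 26 members fell and 3 rose, where 8.33% of genes above the median fell and 6.48% rose. Id1, an inhibitor of basic helix-loop-helix factors and a target of BMP signals, went from 11.64, 11.72 and 11.89 to 9.05, 9.69 and 9.91, a 4.36-fold fall. Id3 fell by 0.90 and Id2 by 0.52, and the fall of Id2 was smaller than its early fall of 0.93 (limma, adjusted p of the difference = 0.0426). Tgfbi, a matrix protein named for its induction by TGF-β, fell by 1.39 ± 0.06, and its 3 other probe sets above the median fell too. Skil, which restrains Smad signalling, rose. It measured 14.86, 14.94 and 14.96 at hours 38 to 43 and 15.27, 15.34 and 15.61 at hours 62 to 67, a rise of 0.45 ± 0.04 after an early shift of 0.02 (interval -0.10 to 0.15).

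Growth factor genes of the IGF axis also moved both ways, with 3 of 12 that rose and 2 that fell. Over genes above the median 6.48% rose and 8.33% fell. Igf1, the insulin-like growth factor, went from 14.94, 15.13 and 15.22 to 15.81, 15.89 and 16.07, a 1.77-fold rise shared by all 3 of its other probe sets above the median. Igfbp4, which binds it, went from 15.60, 15.73 and 15.85 to 14.79, 14.96 and 15.18, and all 5 of its other probe sets fell. Agt, angiotensinogen, the precursor of angiotensin, fell by 1.41 ± 0.16 and had an early shift of 0.86 (interval -0.11 to 1.83), from which the late shift differed (limma, adjusted p = 0.029).

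Matrix genes moved in both directions, where 6.48% of all genes above the median rose and 8.33% fell. Of 19 collagens 1 rose, Col11a1 at 0.95 ± 0.09, and 1 fell, Col16a1 at -0.90 ± 0.14 (a call lost without at least 1 pair), and the median was 0.00. Of 25 proteoglycans and elastic fibre genes 8 rose and 6 fell, with a median of 0.01, and the list mean was higher in the later array of all 6 pairs. Ogn, osteoglycin, a small leucine-rich proteoglycan, went from 15.62, 15.88 and 16.17 to 16.82, 17.03 and 17.18, a rise of 1.12 ± 0.05 that its other probe set shared. Fbn2, a fibrillin of developing microfibrils, went the other way, from 9.34, 9.42 and 9.74 to 6.72, 7.75 and 8.01 (shift -1.97 ± 0.24). Omd, osteomodulin, chosen after its values were seen, rose by 1.04 ± 0.09 after an early shift of 0.05 (limma, adjusted p of the difference = 0.00688). Of 20 matrix proteases and inhibitors 4 rose and 1 fell, led by Mmp11, a secreted metalloprotease, at 1.31 ± 0.13. Ccn5, a matricellular growth regulator, fell by 1.31 ± 0.04, and Thy1, a surface marker of fibroblasts, by 0.56 ± 0.04, its hour 40 array being the highest of its window at 17.45.

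**Figure D3:**
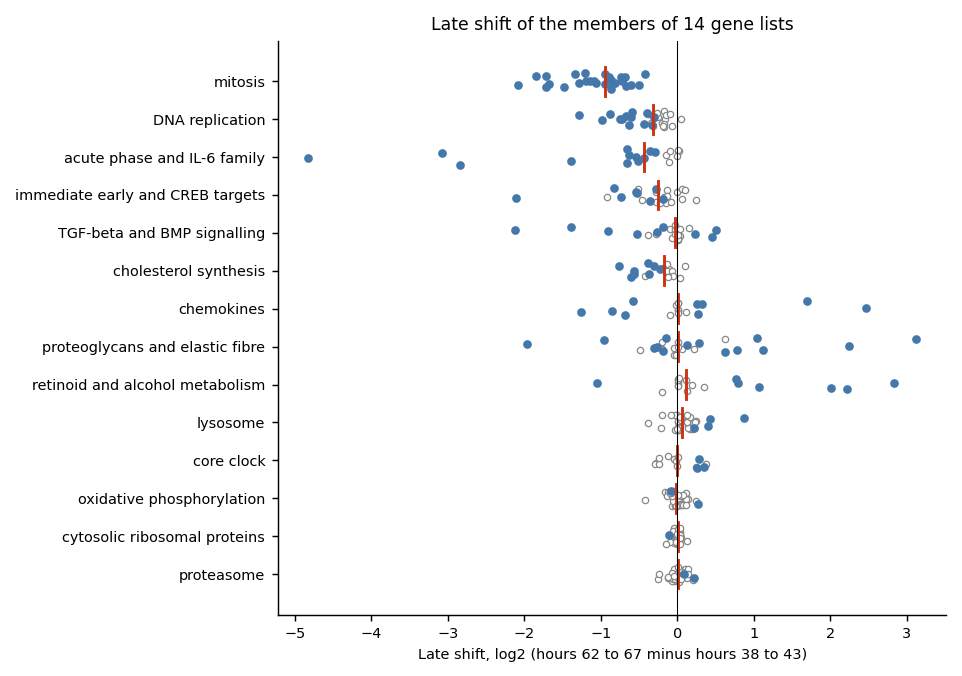
Late shift in log2 of each measured member of 14 gene lists, with filled points for members that passed the test and a red line at each list's median. All 27 mitosis points are filled and lie below zero, while the ribosomal protein and oxidative phosphorylation members crowd around zero.

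Cholesterol synthesis genes rose early and fell late. In the early comparison 10 of 20 measured genes rose and none fell, with a median of 0.43, where 5.36% of genes above the median rose. In the late comparison 8 fell and none rose, where 8.33% of genes above the median fell. The late median was -0.17, and 18 of 20 lay below zero. The difference of the shifts was called for 16 of the 20, each lower in the late comparison, where 3.69% of genes above the median differed. The mean of the list rose from 15.11 at hours 20 to 25 to 15.57 at hours 44 to 49, stood at 15.45 at hours 56 to 61 and was 15.25 at hours 62 to 67. In the 2 late windows it was 15.46, 15.51 and 15.59 against 15.07, 15.30 and 15.34, without overlap.

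Early in the pathway, Mvk, mevalonate kinase, went from 12.86, 12.99 and 13.23 at hours 38 to 43 to 12.08, 12.42 and 12.73 at hours 62 to 67, a fall of 0.60 ± 0.10 after an early rise of 0.48 ± 0.06 (limma, adjusted p of the difference = 0.00248). Mvd, which decarboxylates mevalonate diphosphate, went from 13.73, 13.88 and 14.10 to 12.94, 13.40 and 13.57, a fall of 0.57 after an early rise of 0.65. Idi1, the isomerase that follows, fell by 0.37 after a rise of 0.31. The late calls of Mvd and Idi1 were lost whichever of the 6 pairs was left out, and that of Mvk for 5 of the 6. All 3 promoters shown above carry at least 2 copies of CCAAT within 100 bases of the start. The other probe sets of Mvk and of Mvd above the median were not called in the late comparison, whereas that of Idi1 fell.

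Further along, Lss, which closes the sterol rings, went from 14.66, 14.94 and 15.24 to 13.94, 14.13 and 14.54, a 1.69-fold fall that was the largest of the list, with the hour 62 array apart at 14.54. Stard4, which carries cholesterol between membranes, fell by 0.56 ± 0.04 after an early shift of 0.15 (interval 0.03 to 0.26). Dhcr7, which makes the last reduction to cholesterol, and Insig1, which holds the SREBP complex in the endoplasmic reticulum, were both chosen after their values were seen and had a late interval within 0.3 of zero. The late shift of Dhcr7 was -0.06 (interval -0.22 to 0.09) after an early rise of 0.71, and that of Insig1 was -0.05 (interval from -0.10 to just below zero) after 0.41. Of the sterol list 4 members were on a plateau, a late interval of this kind with a called difference, and 3 had turned back.

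The late fall of the sterol genes also depended on the arrays used. When each pair was left out in turn 1 to 4 members fell, and 2 fell with the β-actin covariate and 1 in the 3 pairs without a high β-actin difference. The medians in those last 2 fits were -0.21 and -0.22. The difference from the early shift was called for 8 to 13 members without each pair in turn. Of 16 fatty acid synthesis genes 2 rose and none fell early, with a median of 0.12, and 3 fell and none rose late, with a median of -0.07. Over genes above the median 5.36% rose early and 8.33% fell late. In this list Elovl6, an elongase of fatty acids, fell by 0.34 ± 0.05 after an early shift of 0.11, although only 1 of its 2 other probe sets fell.

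Lysosomal genes rose in smaller numbers late than early. In the early comparison 14 of 36 measured genes rose, with a median of 0.39, where 5.36% of genes above the median rose. In the late comparison 4 rose and none fell, where 6.48% of genes above the median rose. The late median was 0.06, or 0.13 over the 31 members above the median level. The difference of the shifts was called for 5 members, each lower late, 1 member was on a plateau as defined further on, and 6 early movers could not be placed. Ctsk, the collagen-degrading protease cathepsin K, was the largest, from 10.88, 11.31 and 11.64 to 11.98, 12.25 and 12.31 (shift 0.87 ± 0.12). Neu1, a sialidase, rose by 0.41 after an early rise of 1.30 (limma, adjusted p of the difference = 0.00615), and Naglu, which degrades heparan sulfate, by 0.42 after 0.91 (adjusted p of the difference, limma = 0.0422). Hexa, a subunit of hexosaminidase, rose by 0.22 ± 0.03. These 4 calls were each lost without at least 1 pair, and the count over the list then ran from 0 to 6. The E-box CACGTG was present in 13 of 37 promoters (35.1%) of the list, against 7.15% of all promoters.

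Several genes of retinoid and alcohol metabolism rose late after an early rise. Of 18 measured members, 12 of them above the median level, 6 rose and 1 fell, where 6.48% of genes above the median rose. This list, like the others, was chosen with earlier results of these data known, so the count only describes its members. The late median was 0.12 and the early one 0.51, and 6 members differed, all lower in the late comparison. Adh1, an alcohol dehydrogenase that also oxidises retinol, went from 11.99, 12.11 and 12.55 to 13.96, 14.22 and 14.46, a 4.01-fold rise, after an early rise of 3.76 on the log2 scale (limma, adjusted p of the difference = 0.0188). Dhrs3, which reduces retinal to retinol, rose by 2.21 ± 0.20, with a nearly equal early rise of 2.15. Aldh1a7, an aldehyde dehydrogenase, rose by 1.06 after 2.15. Inmt, the methyltransferase of indolethylamines described above, was placed in this list too, and counts among its 6 rises and 6 differences. The late rise of Inmt was smaller than the early one of 5.28 (limma, adjusted p of the difference = 0.00195).

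The other members of the retinoid list named here were chosen after their values were seen. Crabp2, which carries retinoic acid, measured 12.36, 12.52 and 12.78 and then 12.57, 12.79 and 12.93, a shift of 0.19 ± 0.10 that did not pass the test, after an early rise of 1.37. Aldh3a1, an aldehyde dehydrogenase, had a late shift of -0.20 (interval -0.38 to -0.02) after an early rise of 1.48. Cyp26b1, which breaks down retinoic acid, fell by 1.05 after an early fall of 1.92. The list had 6 rises also without each pair in turn and with the β-actin covariate, and 2 in the 3 pairs without a high β-actin difference.

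Across all genes, those that had moved early were sorted by what they did late. There were 860 early movers, genes called in the early comparison with a shift of at least 0.3. Of these, 404 were still moving, being called in the late comparison in the same direction with a shift of at least 0.3, 169 of them upward and 235 downward. A further 121 had reached a plateau, defined by a late interval within 0.3 of zero and a called difference, 84 after a rise and 37 after a fall. Only 6 had turned back, and 329 could not be placed. The median size of the shift in the plateau genes was 0.49 early and 0.07 late, and in the genes still moving 0.97 early and 0.73 late. The early call and the size limit were used to choose these genes, so larger early sizes follow in part from the choice.

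Of the genes still moving, some had a smaller and some a larger late shift. In 317 of 404 the late shift was smaller than the early one, namely in 147 of 169 rises and in 170 of 235 falls. The difference was called in 62 of these, and in 7 genes the late shift was larger with a called difference. The choice by early call favours larger early sizes in this count. Klra17 and Cpa4 were among the 7, but both had a mean near the floor at hours 20 to 25, of 5.95 and 5.66, so their early shifts are not fully measured. Read from the late side, 1374 of the 1534 genes above the median that were called late (89.6%) had the same sign early. The same share over all genes above the median was not computed. In 649 of the 1374 the late shift was the smaller, a count in which the choice by late call favours larger late sizes. Leaving out each pair in turn gave 167 to 278 genes still moving and 29 to 81 on a plateau.

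Among the named genes still moving were Depp1, a target of FoxO factors, and Pgm5, a cytoskeletal relative of phosphoglucomutase. Depp1 rose by 1.24 ± 0.13 late, from 12.06, 12.33 and 12.86 to 13.15, 13.73 and 13.90, after an early rise of 4.41 (limma, adjusted p of the difference = 0.000845). Pgm5 rose by 1.22 after 4.25, with its hour 67 array low at 13.55. The largest early rises among the plateau genes were of Uap1l1, Rnd2 and Slc16a10. Uap1l1, related to an enzyme of amino sugar synthesis, measured 15.85, 16.04 and 16.15 and then 15.81, 16.01 and 16.27, a late shift of 0.03 (interval -0.18 to 0.23) after an early rise of 1.39. Rnd2, a small GTPase, had a late shift of 0.17 (interval 0.05 to 0.29) after 0.96, and Slc16a10, a transporter of aromatic amino acids, of 0.13 (interval 0.01 to 0.25) after 0.94.

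The 6 genes that turned back had all risen early. Besides Mvk, Mvd, Idi1 and Saa3 they were Slc25a1, the mitochondrial carrier that exports citrate, and Foxred2, an oxidoreductase of the endoplasmic reticulum. Slc25a1 went from 13.19, 13.31 and 13.34 to 12.86, 12.97 and 13.08, a fall of 0.31 after an early rise of 0.49. Foxred2 went from 14.20, 14.35 and 14.39 to 13.41, 13.69 and 13.94, a fall of 0.65 after an early rise of 0.47 (limma, adjusted p of the difference = 0.00137). This class was the least stable, since it held no more than 1 gene when a pair was left out. A further 12 genes were called late with a shift of at least 0.3, had an early interval within 0.3 of zero and a called difference, and of these 6 rose and 6 fell. They included Ubd, Skil, Stard4 and Elovl6. Also among them were Gdpd2, a glycerophosphodiester phosphodiesterase, with a fall of 0.48 ± 0.04, and Eva1b, a membrane protein, with a fall of 0.35 ± 0.02. Ubd had means near the floor at hours 20 to 25 and 44 to 49, of 5.41 and 5.59, so its narrow early interval does not show an absent early shift. This class held 1 to 6 genes without each pair in turn.

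**Figure D4:**
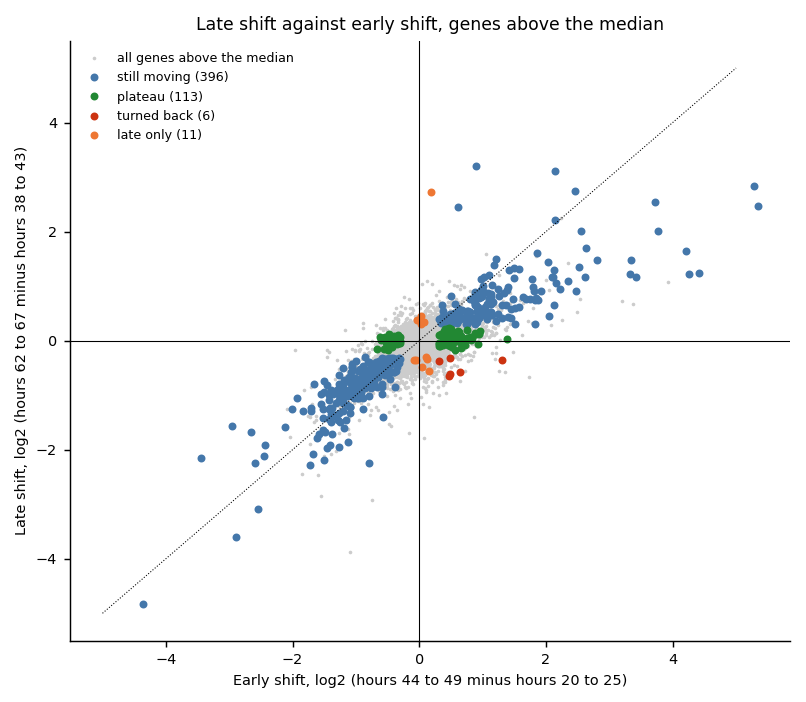
Late shift against early shift in log2 for genes above the median level, coloured by what the gene did in the late comparison. The genes still moving lie in the lower left and upper right, the plateau genes along the line of zero late shift, and the 6 genes that turned back in the lower right.

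Circadian genes were compared in arrays 24 h apart, and whether their phase or amplitude had changed between the windows was not tested. Of 14 core clock genes, 12 above the median level, 3 rose and none fell, by 0.25 to 0.35, and the median was -0.01. Among all genes above the median 6.48% rose. Cry1, a repressor of the clock, had overlapping windows of 13.46, 13.59 and 13.79 and of 13.74, 13.94 and 14.17, but rose in all 6 pairs by 0.35 ± 0.03 (limma, adjusted p = 0.00529). Nr1d2, the receptor REV-ERBβ, rose by 0.28 ± 0.06 and Rora by 0.25 ± 0.05. Neither call was kept without each pair in turn, and none of the 5 other probe sets of Rora above the median was called. For Rora the rise was smaller than the early one of 0.69 (limma, adjusted p of the difference = 0.0048).

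The other core clock genes did not pass the test. Per3 had the largest shift of these at 0.37 (interval 0.10 to 0.63), and Per1 was at -0.30 (interval -0.63 to 0.03), Per2 at -0.24 (interval from -0.48 to just below zero) and Arntl, which encodes BMAL1, at -0.27 (interval -0.50 to -0.05). Nr1d1, or REV-ERBα, was at -0.24 with a wide interval that reached 0.51. Its values went from 8.21 at hour 39 to 10.42 at hour 43, but lay between 8.74 and 9.49 at hours 62 to 67. Clock was at 0.24, Cry2 at -0.13, Npas2 at -0.04 and Bhlhe40 at -0.01. Ciart and Bhlhe41 lay below the median level of the array.

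Of 11 measured clock output genes 4 rose and 2 fell, where 6.48% of genes above the median rose and 8.33% fell, and the list was not tested against the core clock list. Nfil3, a repressor that binds D-boxes, went from 15.40, 15.61 and 15.88 to 14.71, 14.86 and 15.07, a fall of 0.75 ± 0.04 that was close to its early fall of 0.72. Dbp, an activator that binds the same element, rose by 0.78 ± 0.11, from 11.73, 12.46 and 12.80 to 12.88, 13.06 and 13.54, and Hlf, of the same family, by 0.52 ± 0.05. Usp2, a deubiquitinase under clock control, fell by 0.64 ± 0.06. The E-box CACGTG was found in 4 of 16 promoters (25%) of the core clock genes.

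**Figure D5:**
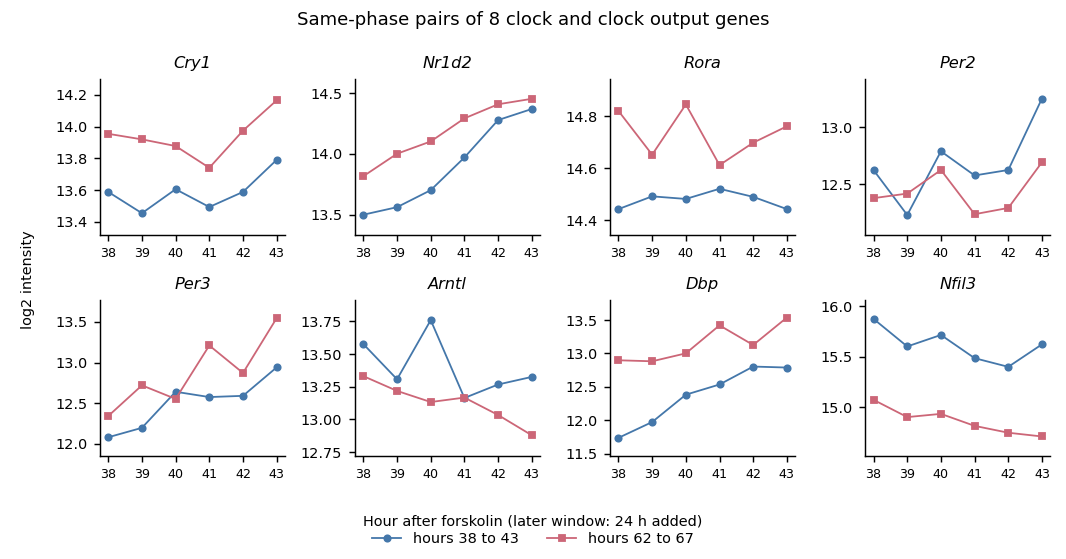
Log2 intensity of 8 clock and clock output genes in the 6 pairs of arrays 24 h apart. Hours 38 to 43 and hours 62 to 67 are drawn over each other. The later values of Cry1 lie above the earlier ones in all 6 pairs and those of Nfil3 below, while the lines of Per2 and Arntl cross.

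Most genes of translation, respiration, the unfolded protein response and the proteasome stayed within narrow bounds. Of 35 cytosolic ribosomal protein genes 1 fell and none rose, and 34 had a late interval within 0.3 of zero. For oxidative phosphorylation the interval was that narrow in 33 of 36 genes, with 1 rise and 1 fall, and for the unfolded protein response in 21 of 23, with 1 rise and 1 fall. Among proteasome genes 26 of 31 were so bounded, with 2 rises, among mitochondrial ribosomal proteins 26 of 37, with 1 fall, and among translation factors 23 of 27, with 1 rise and 2 falls. These shares can be read against the 50.7% of all genes above the median, which covers every gene above 6.67. These lists had mean levels at hours 62 to 67 from 15.12 (mitochondrial ribosomal proteins) to 17.41 (cytosolic ribosomal proteins). Genes of like level were not compared. Of 36 lysosomal genes 19 were so bounded, and of 22 autophagy genes 12. Ribosome biogenesis genes were 13 of 24, and although only 1 of them fell, 21 lay below zero, with a median of -0.14.

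In other lists a few members were called, where 6.48% of genes above the median rose and 8.33% fell. Over all genes 3.76% rose and 4.8% fell. Apart from the Wnt and marker lists, most members of each list lay above the median. Of 26 Wnt pathway genes 2 rose and 1 fell, of 24 glycolysis and hypoxia genes 3 rose and 4 fell, of 21 NRF2 targets 1 rose and 4 fell, and of 22 heat shock genes 3 rose and 4 fell. In the integrated stress response 4 of 25 fell late, with a median of -0.13, after 3 early rises with a median of 0.09, and in the contractile list governed by SRF 4 of 22 fell, in both cases with no late rise. Of 18 p53 targets 1 fell, of 22 autophagy genes 2 rose, of 11 antigen presentation genes 3 rose and of 8 complement genes 2 rose. The rises of the last 2 lists numbered 0 to 1 each without a pair. Of the marker lists of other cell types, the macrophage, epithelial, endothelial and muscle lists had no called member, the neuronal list 1 fall, and the adipocyte list 1 rise and 1 fall.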

How the data were processed

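The authors deposited probe set intensities on a linear scale that they had corrected for background and normalized. The methods name GCRMA for the values and MAS5 for detection calls, whereas the submitters' processing notes name MAS5 alone. Software versions were not given in the sources used here. The constant that scales the intensities is unknown. Intensities of 34.8 to 7.61e+05 were taken to log2 with nothing added. Array medians of the 12 arrays lay between 6.61 and 6.71. The 64 control probe sets were used for quality only. Of the others, 34945 had 1 gene symbol, 932 several and 9160 none, and 34741 were updated through gene identifiers.

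Shifts were fitted with limma 3.58.1 in R 4.3.3 (lmFit, eBayes, 5 residual degrees of freedom), with the pair of arrays 24 h apart as a block and Benjamini-Hochberg adjustment at 0.05. The pairing comes from the hour in the sample title. Deviations of paired arrays from their window means correlated by -0.19 to 0.38 in the late and by -0.70 to 0.69 in the early comparison, so the arrays of a pair did not all deviate together. The difference of late and early shifts was fitted over 24 arrays in 12 pairs. Named genes were the 15 largest rises and 15 largest falls above the median level with the same sign in 6 of 6 pairs, all core clock genes, up to 4 called members per list by size, and up to 8 genes per class of movement. Members and lists were chosen with earlier results of these data known. The number of arrays limits the precision. Other settings tried were no block, other sets of arrays, centring, quantile normalization, filters, RNA length and each pair left out. The fits were tested on simulated data. Python 3.11.15, numpy 2.4.6, pandas 2.3.3 and matplotlib 3.10.9 were used.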

Additional observations from a re-analysis of the deposited data

Results flagged for a closer look

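In groups of 6 arrays, Dixon's test marks an array that lies far from the other 5, and chance marks about 1 in 20 groups. It marked 16 of 222 groups for the 111 named genes (each window apart). In hours 38 to 43 these were Plxdc1 at 8.07 (hour 41), Gfra1 at 12.63 (hour 38), Cdca2 at 11.45, Cdk1 at 16.24 and Thy1 at 17.45 (hour 40), Mcm5 at 13.49 (hour 42) and Gdpd2 at 15.47 (hour 38). In hours 62 to 67 they were Sult1a1 at 8.66, Skil at 15.61, Eva1b at 15.61 and Pgm5 at 13.55 (hour 67), Orm1 at 6.45, Adamtsl4 at 9.002 and Lss at 14.54 (hour 62), Hp at 11.90 (hour 66) and Ciart at 6.53 (hour 64).

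For list means it marked 9 of 92 groups. These were DNA replication at 13.42 (hour 42), the Wnt pathway at 9.87 (hour 65), mitochondrial ribosomal proteins at 15.004 (hour 67), the proteasome at 16.67 (hour 40) and 16.63 (hour 67), autophagy at 14.95 and endothelium markers at 5.58 (hour 62), and skeletal muscle markers at 5.67 (hour 42) and 5.75 (hour 65). The hour 67 and hour 40 arrays are among those with a β-actin difference over 1.4, and its part in these values was not tested.

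The late shift differed from the early shift (limma, adjusted p under 0.05) for 43 named genes. Late minus early was above zero, in log2, for Klra17 (2.30), Ubd (2.55), Cpa4 (1.84), Omd (0.99), Tyms (0.54), Prim1 (0.51), Skil (0.43), Id2 (0.41), Rrm2 (0.32) and Mad2l1 (0.26). Klra17, Ubd and Cpa4 had means near the floor at hours 20 to 25, so their early shifts are not fully measured. Among genes that rose early it was below zero for Inmt (-2.44), Ccl8 (-2.87), Adh1 (-1.76), Edn1 (-2.57), Depp1 (-3.17), Pgm5 (-3.03), Aldh1a7 (-1.09), Aldh3a1 (-1.68), Crabp2 (-1.18), Neu1 (-0.90), Naglu (-0.49), Rora (-0.43), Uap1l1 (-1.36), Rnd2 (-0.79) and Slc16a10 (-0.81). For the genes of sterol synthesis and those that turned back it was -1.13 for Lss, -0.71 for Stard4, -1.09 for Mvk, -1.22 for Mvd, -0.68 for Idi1, -0.46 for Insig1, -0.77 for Dhcr7, -0.80 for Slc25a1, -1.12 for Foxred2 and -1.67 for Saa3. It was -0.45 for Elovl6, -0.53 for Gdpd2, -0.30 for Eva1b and -2.27 for Agt. Larger late falls gave -2.79 for Cdsn, -2.17 for Cbr2, -1.46 for Chil1 and -0.82 for Hp.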

How the results depend on the processing

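Between the settings tried, none turned the direction of a called result. The late shift gave 1304 rises and 1463 falls of probe sets. Without the replicate block it gave 1890 and 1904, and 2 of the 90 called named genes lost their call. The early shift then gave 1794 rises and 1698 falls in place of 949 and 858, the difference of shifts 1218 in place of 704, and the classes 210 genes on a plateau, 624 still moving and 24 late only in place of 121, 404 and 12. With the test kept to probe sets above the median, late rises and falls were 2226 and 2454, and all 48 arrays in 8 windows gave 2290 falls. A trended, robust variance gave 1976 late rises, 13993 differences, 189 plateau genes and 30 late only. A minimum shift of 0.1 left 497 rises and 745 falls. The 3 pairs without a β-actin difference over 1.4 gave 216 and 250, and the 3 means of neighbouring pairs 189 and 235, both with fewer arrays. A margin of 0.2 left 78 plateau genes and one of 0.4 left 3 that turned back. Leaving out the 4 arrays of high β-actin difference without the block, chosen after seeing the data, gave 1016 rises and 1060 falls, and 22 of 27 mitosis genes fell. With the 5 such arrays of the early windows left out in the same way, the early shift gave 1693 rises and 1712 falls, and 3 genes turned back. Of the 90 called named genes, 70 lost their call with neighbouring pairs averaged, 60 without the pairs of high β-actin difference, 18 with the β-actin covariate, 15 without the arrays of high difference and the block, and 14 with the minimum shift of 0.1.

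Without each pair in turn, late rises ran from 524 to 905 and late falls from 695 to 1047, early rises from 322 to 809 and early falls from 298 to 812, and differences from 228 to 603. Plateau genes then numbered 29 to 81, genes still moving 167 to 278, turned back 0 to 1 and late only 1 to 6. Of the 90 named genes called, 62 were called without each pair in turn and 28 lost the call without at least 1 pair. The 28 were Ubd, Fmod, Ccl11, Adamtsl4, Cdca2, Bub1b, Ndc80, Mcm5, Lss, Mvk, Mvd, Idi1, Slc25a1, Foxred2, Saa3, Elovl6, Ctsk, Naglu, Neu1, Hexa, Cyp26b1, Cx3cl1, Nr4a2, Col16a1, Dbp, Rora, Nr1d2 and Ifit3, and their adjusted p (limma) without a pair did not exceed 0.136, that of Nr1d2. Their directions were kept.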
